A study of Mus musculus with 2 samples.

Results

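The miRNA genes described here are 10 hairpins from 2 clusters, the miR-290 cluster on chromosome 7 and the miR-302 cluster, which ends with Mir367, on chromosome 3. They were taken from a list of names: Mir291a, Mir291b, Mir293, Mir294 and Mir295 in the first cluster, and Mir302a, Mir302b, Mir302c, Mir302d and Mir367 in the second. All 10 had a row among the 1973 genes of the count tables. The study sequenced small RNA, with a size label of under 30 nucleotides, from whole stomach of B6NCrl mouse embryos at day 16.5. Its 1 group held 2 biological replicates, each pooled from healthy male and female embryos and both under 1 donor label. Replicate 2 was a pool of 41 embryos, while the number in replicate 1 is not given in the sources used here. No treatment, second age or second tissue was present, so the members could be compared with each other, with the rest of the profile and between the 2 libraries.

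Both clusters are known from the early mouse embryo and from pluripotent stem cells. The miR-290 cluster is transcribed soon after fertilisation and dominates the miRNAs of mouse embryonic stem cells, while the miR-302 cluster is typical of the epiblast and of stem cells primed to differentiate. Each cluster is made as a single long transcript that is cut into several hairpins, and each hairpin can give a 5′ and a 3′ mature arm of about the size sequenced here. Many of the 3′ arms carry the same seed, the short stretch near the 5′ end that pairs with target mRNAs, and they promote cell cycle entry and the pluripotent state. The let-7 family is known to act in the opposite way in differentiated cells.

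The 3′ arms are shown first because they are what the members have in common in sequence. Each is written 5′ to 3′ from RefSeq (GRCm38.p6), with the seed, bases 2 to 8, in capitals.
miR-302b-3p: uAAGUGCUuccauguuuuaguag
miR-302d-3p: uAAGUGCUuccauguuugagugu
miR-302c-3p: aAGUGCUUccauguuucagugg
miR-291a-3p: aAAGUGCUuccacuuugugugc
miR-294-3p: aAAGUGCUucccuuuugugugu
miR-295-3p: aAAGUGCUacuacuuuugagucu
miR-291b-3p: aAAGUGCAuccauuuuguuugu
miR-293-3p: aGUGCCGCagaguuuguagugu
miR-367-3p: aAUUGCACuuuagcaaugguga

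The seed AAGUGCU was shared by 5 arms, those of Mir302b, Mir302d, Mir291a, Mir294 and Mir295, and by no other mouse arm in the RefSeq entries used. The arm of Mir302c as annotated begins 1 base further on, which gives it the seed AGUGCUU. Mir291b differs in the last seed base and shares its seed with miR-350-5p. Mir293, at GUGCCGC, shared its 3′ seed with no other entry, and Mir367 belongs to another family, whose seed AUUGCAC is found in 5 further arms: those of miR-25, miR-32, miR-363, miR-92a and miR-92b. For Mir302a the 5′ arm is miR-302a-5p: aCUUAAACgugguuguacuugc. Its 3′ arm, miR-302a-3p, had no entry among those used, so its seed as annotated could not be compared with the others. The hairpin of Mir302a does share a run of 18 bases with miR-302b-3p, 17 with miR-302d-3p and 16 with miR-302c-3p. The counts belong to whole hairpins, so how the reads of a gene divide between its arms cannot be read from them.

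How similar the arms are bears on how reads were counted, since reads placed in several positions were totalled apart and, as inferred from that total, are in no gene count. The 3′ arms of Mir302b and Mir302d share their first 17 bases, and those of Mir302b and Mir302c a run of 16. The arm miR-302b-3p shares 18 bases with the hairpin of Mir302a. The 5′ arms of Mir291a and Mir291b share 20 of their 22 bases. No mature sequence of a member was identical to another RefSeq entry. Reads cut short to a shared run would be missing from these genes, and their part in the levels was not tested.

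The miR-302 cluster supplied most of the members' reads. Its 5 genes held 548 sense reads in replicate 1 and 484 in replicate 2, or 65.7 ± 7.23 counts-per-million (CPM; SD, n = 2) of the reads assigned to genes in the sense direction. The 5 listed genes of the miR-290 cluster held 67 and 72 reads, or 8.84 ± 0.252 CPM. All 10 members together held 615 and 556 reads, which is 0.00795% and 0.00696% of the sense-assigned reads. The exact 95% limits (Clopper-Pearson) were 0.00734% to 0.00861% for replicate 1, and for replicate 2 they were 0.00640% to 0.00757%. These intervals cover counting error only, not the spread among pools, and take every read as independent. The sources used here name no molecular identifiers, so reads copied from 1 molecule could not be told apart. In whole tissue, few cells with a high level and many cells with a low level cannot be told apart.

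Mir302a, the highest of the 10, was counted with 257 reads in replicate 1 (33.2 CPM) and 209 in replicate 2 (26.2 CPM). It was the highest member in both libraries, and its values there did not overlap those of any other member. Mir302d followed with 163 and 159 reads (21.1 and 19.9 CPM), and Mir302b had 100 and 96 reads (12.9 and 12.02 CPM). Both of these genes carry the common seed on their 3′ arm, while the 3′ arm of Mir302a was not among the entries used. The values of Mir302d did not overlap those of Mir302b. Mir302c was lower, with 28 and 20 reads (3.62 and 2.51 CPM). Of the reads of the cluster, Mir302a took 45.0% ± 2.63, Mir302d 31.3% ± 2.20, Mir302b 19.0% ± 1.12 and Mir302c 4.62% ± 0.691 (SD, n = 2).

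Mir367, the last hairpin of this cluster, whose 3′ seed belongs to the miR-25 and miR-92 family, had 0 reads in both libraries. For reads placed in 1 position, the exact Clopper-Pearson upper limits of this count were 0.477 CPM (replicate 1) and 0.462 CPM (replicate 2). The floor of 3 counts, used here for a count of 0, is lower, at 0.388 CPM and 0.376 CPM. Against this floor of 3 counts per library, Mir302a was 85.7-fold higher in replicate 1 and 69.7-fold higher in replicate 2. Mir302d, whose hairpin ends 43 bases before that of Mir367 begins, was 54.3-fold and 53-fold higher than the floor. These folds leave out the counting error of the higher gene. They are not lower bounds on the difference from Mir367, since its exact upper limits lie above the floor. The mature arms of Mir367 shared no run of more than 10 bases with another hairpin in the RefSeq entries. These neighbouring hairpins are printed with their mature arms in capitals, since they stand side by side on 1 strand, the one with reads in both libraries and the other with none.
Mir302d: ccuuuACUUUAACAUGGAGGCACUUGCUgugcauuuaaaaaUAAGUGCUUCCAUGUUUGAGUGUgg
Mir367: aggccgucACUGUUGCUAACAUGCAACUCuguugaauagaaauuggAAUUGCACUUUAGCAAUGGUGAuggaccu

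In the miR-290 cluster the leading gene was Mir293, with 43 reads in replicate 1 (5.56 CPM) and 36 in replicate 2 (4.51 CPM). Its 3′ arm lacks the hexamer AAGUGC that the 3′ arms of the other 4 listed genes of the cluster carry. Mir293 took 43 of the 67 reads of the 5 listed genes in replicate 1, or 64.2%, and 36 of 72 in replicate 2. Mir294, which carries the common seed and is among the best known miRNAs of mouse stem cells, stood at 12 reads in replicate 1 (1.55 CPM) and 23 in replicate 2 (2.88 CPM). The order of Mir293 over Mir294 was the same in both libraries. Their exact 95% intervals did not overlap in replicate 1 (4.02 to 7.49 CPM against 0.802 to 2.71 CPM), but did in replicate 2 (3.16 to 6.24 CPM against 1.83 to 4.32 CPM).

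The other genes of this cluster lay near the limit of detection. Mir291a had 5 and 6 reads, Mir291b 5 and 4, and Mir295 2 and 3, so that each stayed under 1 CPM in both libraries. Their intervals overlapped one another throughout, and no order can be given among them. For Mir295, both counts were at or under the floor of 3 counts. The further hairpins of the cluster that are not on the list were looked up as well. Mir290a, its first hairpin, had 3 and 4 reads, and Mir292 had 7 and 16 (0.905 and 2.00 CPM), while Mir290b and Mir292b have no row of their own in the tables. With Mir290a and Mir292 added, the cluster held 77 reads in replicate 1 and 92 in replicate 2, or 10.7 ± 1.11 CPM (SD, n = 2).

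**Figure D1:**
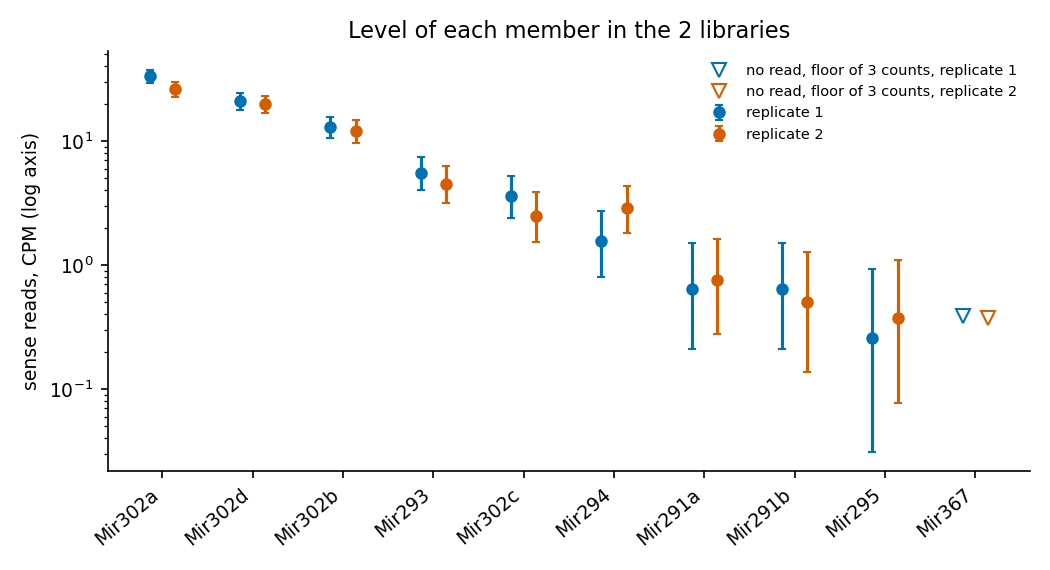
Sense reads of each member in CPM (log axis) by library, as points with exact Clopper-Pearson 95% intervals, members ordered by mean level; open triangles mark the floor of 3 counts where no read was seen. Mir302a, Mir302d and Mir302b stand between 12.02 and 33.2 CPM, all other members are under 6 CPM, and Mir367 has no read in either library.

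The order of the members by mean CPM was Mir302a, Mir302d, Mir302b, Mir293, Mir302c, Mir294, Mir291a, Mir291b, Mir295 and Mir367, and it was the same when CPM was divided by the length of the hairpin. Neighbours in this order were taken as apart only where their exact 95% intervals were separate in both libraries. Of the 9 neighbouring pairs, 2 met this: Mir302d over Mir302b, and Mir302b over Mir293. Mir302a and Mir302d were apart in replicate 1 only, and Mir294 and Mir291a in replicate 2 only. Mir293 and Mir302c differed by 1.97 CPM in their means, with overlapping intervals in both libraries. For Mir302c and Mir294 the library values themselves overlapped.

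By position, the miR-302 hairpins lie on the plus strand of chromosome 3 from 127545228 to 127545807 (GRCm38, the assembly that mm10 names), within 580 bases and in the order Mir302b, Mir302c, Mir302a, Mir302d, Mir367. All 5 fall in an intron of Larp7, a gene of the opposite strand that codes for a protein of the 7SK RNA complex. Along the transcript the mean level ran from 12.5 CPM at Mir302b to 3.06 at Mir302c, 29.7 at Mir302a, 20.5 at Mir302d and 0 at Mir367, so that it neither rose nor fell steadily. Mir302c, lowest of the hairpins with reads, lies between Mir302b and the highest, Mir302a, with gaps of 61 and 65 bases.

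The miR-290 hairpins are spread wider, over 2216 bases of the plus strand of chromosome 7 from 3218626 to 3220841. The 5 listed genes lie opposite the 3′ untranslated part of an exon of Nlrp12, an immune regulator gene on the minus strand. Mir293, with the most reads, begins 782 bases after the end of Mir291b, the widest gap of the cluster. The 4 hairpins before that gap (Mir290a, Mir291a, Mir292, Mir291b) had mean levels of 0.444 to 1.45 CPM, and the 3 after it had 5.03 (Mir293), 2.22 (Mir294) and 0.317 (Mir295). No read lay on the strand opposite to a listed member in either library. Opposite to Mir292, where Mir292b lies, there were 3 reads in replicate 1 and 0 in replicate 2, no more than the floor.

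**Figure D2:**
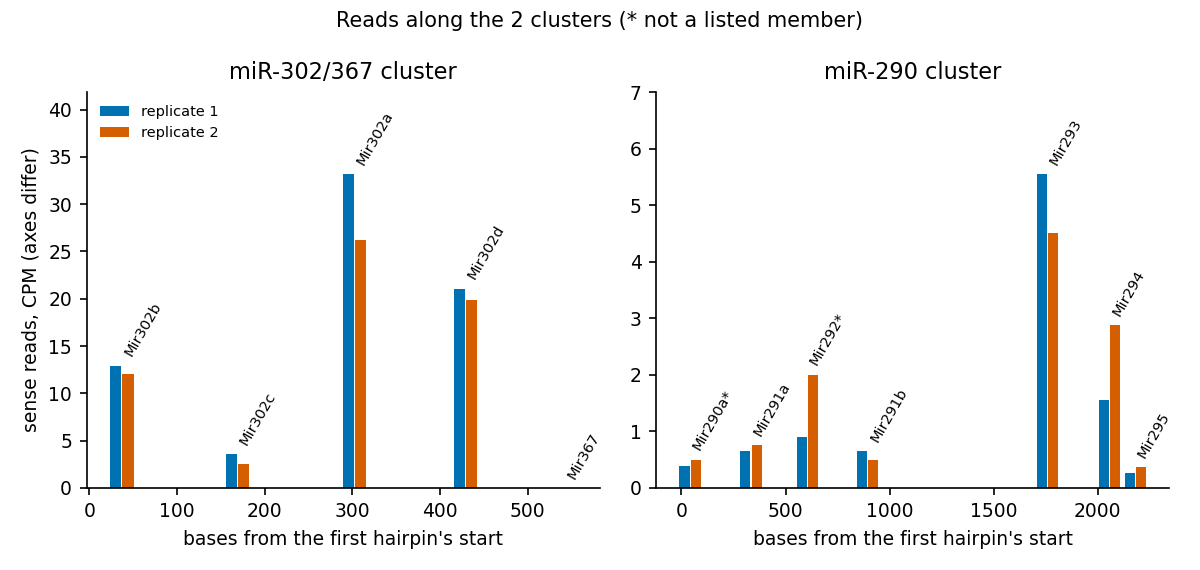
Sense CPM of each hairpin by library (bars) against the distance in bases from the start of the first hairpin of its cluster, with separate vertical scales; an asterisk marks hairpins that are not listed members. In the miR-302 cluster Mir302c is low between higher neighbours and Mir367 has no bar, and in the miR-290 cluster Mir293 is highest.

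Within the whole profile the members were spread from above the middle to the lower part. Among the 751 genes with a sense read in either library, Mir302a ranked 248, Mir302d 264, Mir302b 280, Mir293 314, Mir302c 339 and Mir294 360. Mir291a, Mir291b and Mir295 ranked 471, 499 and 582. Thus 67.0% of the genes with a read were lower than Mir302a, and 22.2% were lower than Mir295. The median of all 10 members, with Mir367 at 0 included, was 2.64 CPM. Over the 751 genes with a read the median was 1.91 CPM, and 6 members stood above it. Over all 1973 genes, with or without a read, the median was 0. At 1 CPM or more in both libraries stood 6 of the 10 members, beside 20.7% of all 1973 genes. At 10 CPM or more there were 3, Mir302a, Mir302d and Mir302b, beside 14.04% of all genes.

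The 3 genes outside the clusters that were most like Mir302a, by Euclidean distance of log2(CPM + 1) over the 2 libraries, were Mir450-1, Mir153 and Mir150. Mir450-1 had 227 and 204 reads at a distance of 0.177. Mir153 had 222 and 215 reads (0.208), and Mir150, a lymphocyte miRNA gene, had 300 and 198 (0.230). With 2 libraries this likeness is mainly one of level.

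**Figure D3:**
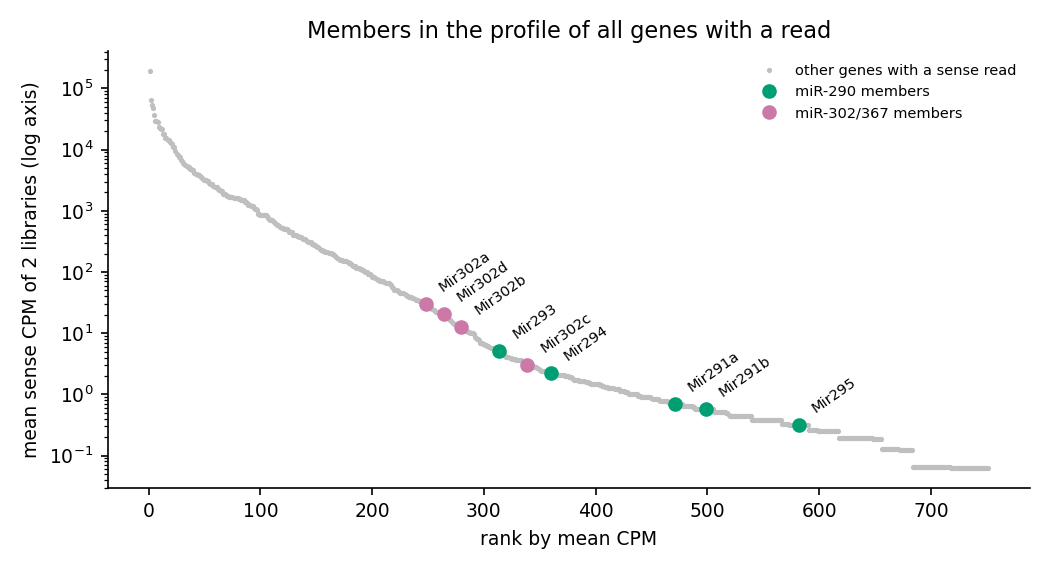
Mean sense CPM of the 2 libraries (log axis) against rank for the 751 genes with a read, with the members coloured by cluster. The miR-302 genes fall between rank 248 and rank 339, and the miR-290 genes between rank 314 and rank 582; Mir367, with no read, is not on the plot.

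Genes with related seeds were set beside the members, from lists written with earlier results of these data known. The miR-17 family, of proliferating cells, has the seed shifted by 1 base and held 3.27% ± 0.299 of the reads (SD, n = 2), all 6 of 6 genes being detected. Mir17 stood at 15359 ± 1970 CPM, Mir93 at 6403 ± 246 CPM and Mir20a at 6081 ± 918 CPM. Summed, these genes had 438 times the reads of the 10 members in replicate 1 and 439 times in replicate 2. Even the lowest, Mir20b, with 350 and 252 reads, was above Mir302a in both libraries. The relatives of Mir367 by seed were detected in 6 of 6 genes, led by Mir92-1 at 2438 ± 981 CPM, Mir25 at 448 ± 13.9 CPM and Mir32 at 171 ± 14.9 CPM. In sum they reached 0.330% ± 0.104, while Mir367 had no read.

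Grouped by sequence alone, 16 genes with a row had AAGUGC within bases 2 to 8 of a RefSeq mature arm, 6 of them members (Mir302b, Mir302d, Mir291a, Mir291b, Mir294 and Mir295). Mir302a, the highest member, was entered by its 5′ arm only, so its 257 and 209 reads are not in this group, and neither are those of Mir467a to Mir467e, whose mature arms were not used here. That Mir302a is outside the group says nothing of its 3′ arm, and its hairpin shares long runs with the 3′ arms of Mir302b and Mir302d. Mir292 of the miR-290 cluster was also outside the group, which says nothing of its 3′ arm either. The whole group held 3.32% ± 0.347 of the sense-assigned reads and its 6 members 36.8 ± 0.464 CPM (SD, n = 2). These 6 members thus gave 0.104% of the reads of the group in replicate 1 (exact 95% interval 0.0923% to 0.117%) and 0.118% in replicate 2 (0.105% to 0.133%). When AAGUGC had to fill bases 2 to 7, which leaves out the miR-17 family, 8 genes were left. The group then held 0.0537% of the reads on average, with 0.0877% in replicate 1 and 0.0197% in replicate 2. The same 6 members gave 4.23% of its reads in replicate 1 and 18.5% in replicate 2. Most of the rest was Mir350, with 6494 reads in replicate 1 and 1278 in replicate 2. These shares depend on which genes had an entry. The miR-467 genes, listed as a cluster of AAGUGC type, held 35562 reads in replicate 1 and 31684 in replicate 2. They are not in the group, and the members' share with them included was not computed. RefSeq mature arms were found for 632 of the 751 genes with a read, which held 77.8% and 78.6% of the sense-assigned reads, so both groups cover only part of the profile.

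Let-7 genes, known from differentiated cells, stood far higher in sum. The let-7 family held 13.0% ± 1.82 of the reads (SD, n = 2), with 10 of 10 genes that had a row detected. Its sum was 1472 times that of the members in replicate 1 and 2051 times in replicate 2. Of the miRNAs reported to target the mRNAs of pluripotency factors, 4 of 4 had a read, at 0.755% ± 0.237 in sum. Of these, 3 had at least 10 reads in both libraries together, and Mir470 had fewer. Mir145a stood at 3928 ± 1963 CPM, Mir296 at 2530 ± 237 CPM and Mir134 at 1092 ± 171 CPM. The miR-467 genes of the Sfmbt2 intron, a repeat cluster of the mouse known from embryonic stem cells, held 0.428% ± 0.0445. In sum they had 57.8 times the members' reads in replicate 1 and 57.0 times in replicate 2. Mir467e led at 1621 ± 289 CPM, with Mir467d at 1581 ± 121 CPM and Mir467c at 1080 ± 35.3 CPM. Reads were found in 5 of 14 genes and none in 9. Reads that fit several of these repeat copies would be missing, so a count of 0 does not show absence.

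The 2 libraries were then compared, member by member. The test was a two-sided exact binomial test of the 2 counts against library sizes scaled with edgeR's TMM factors, which centre the bulk of the genes, with Benjamini-Hochberg adjustment over all 488 genes with at least 10 reads in both libraries together. It compares these libraries and carries counting error only, not the spread among pools. Of the 10 members 7 had enough reads, and 0 of 7 were called at an adjusted p under 0.05 and at least 2-fold. Among all genes tested, 10.5% were called. At an unadjusted p under 0.05 there was 1 member of 7, Mir294, against 55.1% of all genes tested. Such a test detects smaller differences in genes with more reads, and the members were not matched to other genes by reads. The lower shares among the members therefore do not show that they were steadier. With DESeq2 size factors and with total-read scaling the count of members called was also 0.

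Mir302a was 1.15-fold higher in replicate 1 (log2 ratio 0.20, 95% interval -0.07 to 0.47), with an adjusted p of 0.220 by the exact binomial test. Mir302d and Mir302b had log2 ratios of -0.06 (-0.39 to 0.26) and -0.04 (-0.46 to 0.38). These 2 ratios turned positive with total-read scaling, at 0.08 and 0.10. Their intervals do not reach a 1.5-fold difference, so a difference of that size between the libraries lies outside the counting error for both genes. Mir294 had a log2 ratio of -1.01 (-2.18 to 0.03), with 12 reads against 23 and an adjusted p of 0.0782 by the same exact test. For Mir291a, with 5 and 6 reads, the interval ran from -2.41 to 1.62, and a difference of 2-fold in either direction was not detectable. Within 1.5-fold lay 6 of the 7 members and 66.8% of the 488 genes. The median log2 ratio was -0.04 over the 7 members and 0.05 over all genes tested; total-read scaling moved these to 0.10 and 0.19.

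The balance of the clusters differed between the libraries by less than the counting error. The miR-302 genes gave 89.1% of the members' reads in replicate 1 (exact 95% interval 86.4% to 91.5%) and 87.1% in replicate 2 (84.0% to 89.7%). The odds ratio was 1.22, with p = 0.280 by a two-sided Fisher's exact test of the summed reads. In ratio, the miR-302 reads were 8.18 times the miR-290 reads in replicate 1 and 6.72 times in replicate 2.

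**Figure D4:**
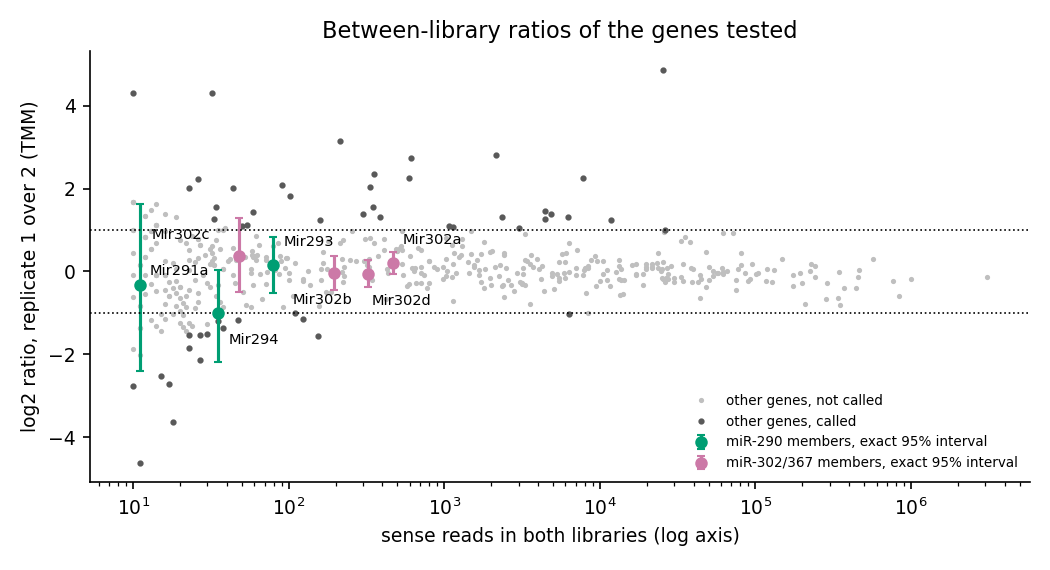
Log2 ratio of replicate 1 over replicate 2 (TMM scaling) against the reads of both libraries (log axis) for the 488 genes tested; coloured points are the 7 members tested, with exact 95% intervals, dark points are called genes, and dotted lines mark 2-fold. The 7 members lie among the genes not called, and Mir294, at -1.01 with an interval that reaches 0.03, lies lowest of the 7.

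The tissue label was checked against marker genes. Smooth muscle genes held 20.0% of the reads, epithelial genes 8.44%, and gastrointestinal epithelial genes, led by Mir215 and Mir192, 0.397%. Endocrine Mir375 held 1.11% and endothelial Mir126a 2.90%. Leukocyte genes held 0.130%, and Mir122 of hepatocytes 0.182% in replicate 1 and 0.121% in replicate 2. Blood genes held 0.124% and 0.0591%, with 1 of 3 called higher in replicate 1, namely Mir451a with 8396 and 3336 reads. Of the 6 neuronal genes with a row, 3 (Mir124a-1, Mir124a-2 and Mir124a-3) were at 0 in both libraries, and Mir137 alone held 10820 of the 10837 reads of the list in replicate 1. Striated muscle genes held 0.336% in replicate 1 and 0.0202% in replicate 2, with 3 of the 5 genes tested called higher in replicate 1 and 2 of 8 (Mir133a-1 and Mir133a-2) at 0 in both. Mir206 led the list, with 24624 and 797 reads. Reads that fit several of the numbered Mir124a or Mir133a genes would be missing, as inferred for multiply placed reads. A count of 0 at these genes therefore does not show that their miRNAs are absent. The members' share was 0.00795% and 0.00696% in the same libraries, and the part of muscle tissue or blood in any level here was not tested.

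Depth was nearly equal in the libraries. They held 15746238 and 15958656 reads, of which 7734578 and 7983714 were assigned to genes in the sense direction. Reads placed in several positions were 25.1% and 25.2% of all reads.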

How the data were processed

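Small RNA of 2 pooled stomach samples was analysed from the read counts per gene that the authors deposited. The assembly was mm10 and the annotation GENCODE M4, per the file headers. No aligner, counter or trimming step is named in the sources used here. Every deposited table counts reads without regard to strand and on each strand, and the strand column with the larger total was taken as sense. The 4 summary totals were left out of library sizes. Symbols and positions came from GENCODE M21 (1894 of 1973 identifiers matched, and the other 79 held 3 sense reads), and sequences from RefSeq, where 10 of 10 members had a mature arm.

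CPM are of sense-assigned reads. Library sizes for ratios were scaled in edgeR 4.0.16 (R 4.3.3), with 0.5 added to each count, and DESeq2 1.42.0 gave alternative size factors. Tests ran over all genes with at least 10 reads. The test between libraries was also run on simulated counts with known folds. Those counts carried counting error only, so they say nothing of the spread among pools. Intervals are exact Clopper-Pearson at 95%. Python 3.11.15, scipy 1.17.1 and matplotlib 3.10.9 did the rest. Alternatives changed the strand column, the denominator, the scaling, the read filter, the thresholds, the seed definition and the libraries kept. The members and lists were chosen with earlier results of these data known. By rule, the text names the 10 members, other hairpins within 10 kb, overlapping genes, the 3 nearest genes and up to 3 genes per list; Mir20b, Mir350, Mir133a-1, Mir133a-2 and the Mir124a genes were named after their values were seen.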

Additional observations from a re-analysis of the deposited data

How the results depend on the processing

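Of 46 alternative values that keep both libraries, 35 kept their direction and side of the threshold or moved by less than 1 SD. Among them were the 20 for the levels of single members. These 20 changed only the denominator, since no read lay opposite to a listed member, so they show little of stability. For the same reason, counting both strands could not change the odds ratio between clusters. A further 34 alternative values leave out 1 library. With 2 libraries a mean then moves by less than 1 SD by construction, so these 34 show nothing of stability. The members' share of 0.00746% became 0.00369% over all reads of the library and 0.00927% with Mir143 left out of the denominator. Under the same choices the miR-290 share of 0.000884% became 0.000438% and 0.00110%, and the miR-302 share of 0.00657% became 0.00326% and 0.00818%. Counting both strands gave 2.56 CPM for the median member, 0.000857% for miR-290 and 0.00356% for the members in the seed group. These changes follow from the larger or smaller denominator. At 10 CPM, 3 members passed where 6 did at 1 CPM. With AAGUGC at bases 2 to 7 the seed group held 0.0537% in place of 3.32%, since fewer genes qualify. The test between libraries called 0 members under each of 6 alternatives; leaving out a library leaves nothing to test. Without Mir302a and Mir293 the odds ratio between clusters was 1.59 (Fisher's exact p = 0.104). Of the members, 3 held under 10 reads in all and were not tested.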
